A study of Homo sapiens with 8 samples.

Results

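The behaviour of 10 genes that control the passage from G1 into S phase was followed through the RNA sequencing of MDA231 breast cancer cells and 2 sublines made from them. They are the D-type cyclins CCND1 and CCND3, the E-type cyclins CCNE1 and CCNE2, the kinases CDK2 and CDK4, the inhibitors CDKN1A (p21) and CDKN1B (p27), the retinoblastoma gene RB1 and the transcription factor E2F1. The genes were chosen by name for their role, with earlier results of these data known. They were matched by symbol to the Ensembl identifiers of the count files, which gave 10 of the 58051 genes listed there. MDA231 is a line of triple-negative breast cancer cells. The parental cells (n = 2) were not modified. SDHBKO cells (n = 3) carry a TALEN-made knockout in exon 1 of SDHB, a subunit of respiratory complex II, and had been selected with hygromycin. SDHBKO SDHAlow cells (n = 3) carry the same knockout and an shRNA against SDHA, the subunit that binds succinate, and had been selected with puromycin. All 3 groups were grown to subconfluence in full medium with no further treatment. The labels do not give the number of clones in a subline or which of the shRNA plasmids was sequenced, and none of the 8 samples is labelled as an empty-vector control, so that the shRNA and its selection cannot be told apart in the comparison of both sublines.

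D-type cyclins bind CDK4 (or its relative CDK6) in early G1, and the complex phosphorylates the RB1 protein. Unphosphorylated RB1 holds E2F transcription factors, E2F1 among them, inactive. Once E2F is released it switches on CCNE1, CCNE2 and the genes of DNA replication, and cyclin E with CDK2 completes the phosphorylation of RB1. CDKN1A and CDKN1B bind and inhibit the cyclin E and CDK2 complexes, and assist the assembly of those of cyclin D. Much of this control acts on proteins, by phosphorylation and degradation, which counts of RNA do not measure.

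Sequencing was of transcript 3' ends, and a count is thus a read near the poly(A) tail. Counts on genes ranged from 773042 to 1427141 per library (median 853763.5), and 3 counts corresponded to 2.10 to 3.88 CPM, the count scaled to a common library size. The deepest library, SDHBKO SDHAlow replicate 2, stood apart from its group. Chi-square per degree of freedom was 8.96 and 9.58 against its group mates, and 2.09 to 5.03 between the other replicate pairs. The tests of the 10 genes were also run without it, which kept all of their calls and added E2F1 in SDHBKO against parental cells. SDHA had 64 and 69 counts in the parental libraries, 108, 121 and 140 in SDHBKO cells and 7, 17 and 16 in SDHBKO SDHAlow cells, a log2 fold change of -3.46 from SDHBKO cells (edgeR, adjusted p = 1.16e-07). SDHB had 0 to 4 counts in every library, and its 3' reads lie outside the edited exon 1 and do not check the knockout. The mesenchymal markers VIM (597 to 918 counts), AXL (1442 to 3025), MSN (602 to 2042), CD44 (145 to 340), EGFR (48 to 90) and CAV1 (44 to 79) were present in all libraries. The luminal breast markers ESR1 and PGR and the leukocyte marker PTPRC were at 0 in all 8. Of the other luminal markers listed, FOXA1, CDH1 and ERBB3 had at most 1, 2 and 3 counts, but GATA3 had 8 to 20.

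Of the 10 genes, 9 had a mean normalized count above 5 and were tested, with CCNE2 left out. In SDHBKO cells relative to parental cells, CDK4 rose, and CDK2 and RB1 fell. In SDHBKO SDHAlow cells CDK4 was lower than in SDHBKO cells, and CDK2 was below the parental level. Neither D cyclin, CCNE1, E2F1 nor either inhibitor passed the test in any comparison. A gene was called at an adjusted p below 0.1 in the edgeR quasi-likelihood test across 7550 genes. In SDHBKO against parental cells this called 3 of the 9 tested genes, and 5.54% of all genes (3.14% higher and 2.4% lower). RB1 passed the filter on low counts only through its parental counts, so that a difference was built into its selection. In SDHBKO SDHAlow against SDHBKO cells it called 1 of 9, and 1.51% of all genes (0.318% higher and 1.19% lower). In SDHBKO SDHAlow against parental cells it called 1 of 9, and 0.914% of all genes (0.225% higher and 0.689% lower). For the counts given further on, an unadjusted p under 0.05 in edgeR was reached by 17.5%, 12.1% and 12.3% of all genes in the same order. DESeq2 called 12.4%, 2.85% and 1.99% of the genes to which it gave an adjusted p, and edgeR without SDHBKO SDHAlow replicate 2 called 11.4%, 5.03% and 2.32%. The median log2 fold change of the 9 genes was -0.28, -0.08 and -0.28 in these comparisons, beside -0.0007, 0.013 and 0.017 for all genes tested. Each comparison shares a group of libraries with the others, so they are not independent.

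**Figure D1:**
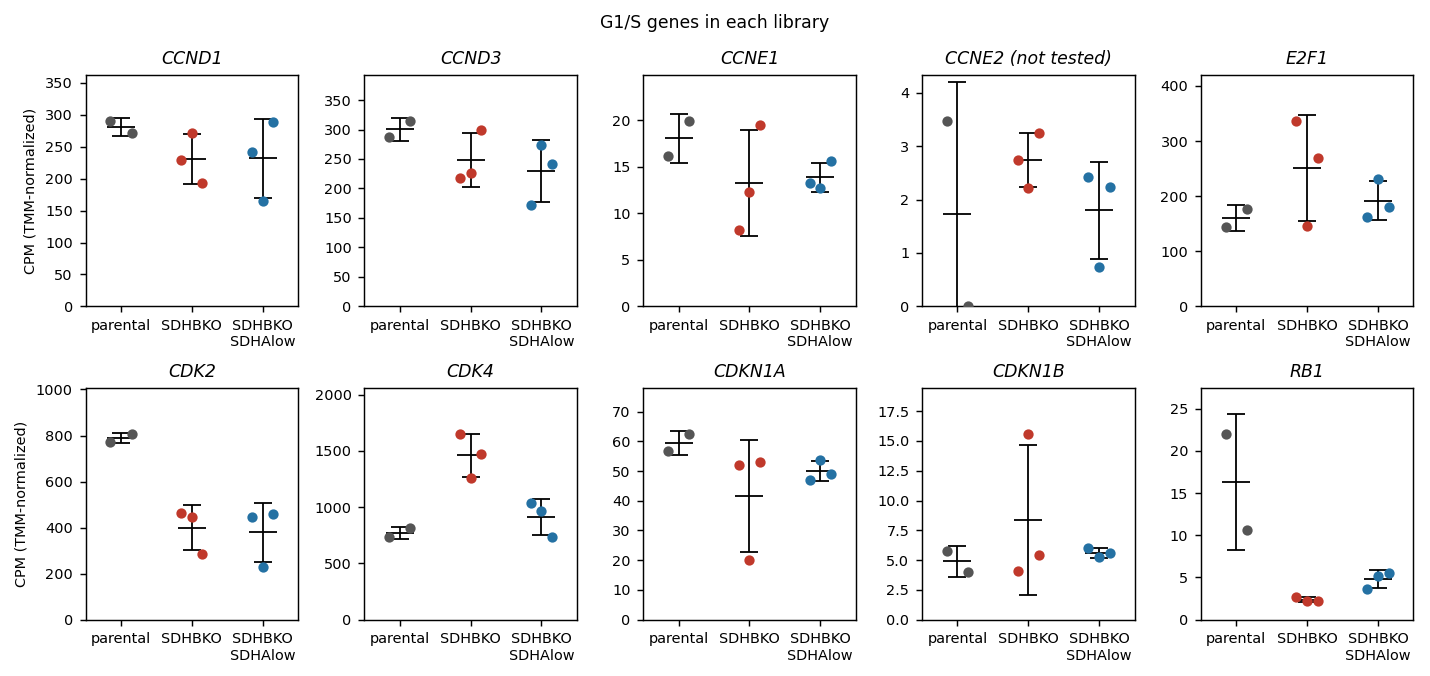
Normalized expression (CPM after TMM normalization, linear axes from 0) of the 10 genes in each of the 8 libraries; points are libraries, bars show the mean and SD of the group. CDK2 is at 774 and 806 CPM in the parental libraries and between 229.8 and 465 in the 6 libraries of both sublines, while CDK4 is highest in the 3 SDHBKO libraries.

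Of the kinases, CDK2 lies on chromosome 12 (GRCh38, 55966781 to 55972789, plus strand). It had 669 and 607 counts in the parental libraries, 340, 402 and 265 in SDHBKO cells, and 371, 308 and 412 in SDHBKO SDHAlow cells. After normalization these were 774 and 806 CPM in parental cells, 465, 447 and 286 in SDHBKO cells, and 448, 229.8 and 459 in SDHBKO SDHAlow cells. Every library of both sublines was below both parental libraries, and the sublines overlapped each other. The group means were 789.9 ± 22.5 CPM (SD, n = 2), 399 ± 98.6 (n = 3) and 379 ± 129 (n = 3). CDK2 was thus 1.98-fold lower in SDHBKO than in parental cells (log2 fold change -0.99, SE 0.262, 95% interval -1.53 to -0.44, edgeR adjusted p = 0.049). In SDHBKO SDHAlow cells it was 2.09-fold lower than in parental cells (log2 fold change -1.07, 95% interval -1.61 to -0.52, edgeR adjusted p = 0.085). Between the sublines the log2 difference was -0.08, with an interval of -0.58 to 0.42, and did not pass the test (edgeR adjusted p = 0.923). The call against parental cells rests on the parental libraries: leaving out replicate 1 of the parental cells gave a log2 fold change of -1.02 at an adjusted p of 0.420 in SDHBKO cells, and leaving out replicate 2 gave -0.96 at 0.253. In the first of these fits edgeR called 0 of 7479 genes in this comparison, with 659 at an unadjusted p under 0.05. It was also lost without SDHBKO replicate 1 (0.127) or 3 (0.191). The call in SDHBKO SDHAlow cells was lost without parental replicate 1 (0.819) or 2 (0.335), SDHBKO replicate 1 (0.114) or 2 (0.110), or SDHBKO SDHAlow replicate 1 (0.172), and in a fit of only these groups (0.155). Without SDHBKO SDHAlow replicate 2, the lowest of the 8 libraries in CDK2, it was kept at a log2 fold change of -0.80 (0.055).

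CDK4 lies on the same chromosome (57747727 to 57756013, minus strand). It had 634 and 611 counts in the parental libraries, 1205, 1135 and 1361 in SDHBKO cells, and 860, 1289 and 661 in SDHBKO SDHAlow cells. In CPM these were 733 and 811 in parental cells, 1649, 1262 and 1469 in SDHBKO cells, and 1038, 962 and 737 in SDHBKO SDHAlow cells. The SDHBKO libraries were above all 5 others, and SDHBKO SDHAlow libraries overlapped the parental ones. Means were 772 ± 54.9 CPM (SD, n = 2) in parental, 1460 ± 194 (n = 3) in SDHBKO and 912 ± 157 (n = 3) in SDHBKO SDHAlow cells. CDK4 was 1.89-fold higher in SDHBKO than in parental cells (log2 fold change 0.92, SE 0.214, 95% interval 0.47 to 1.36, edgeR adjusted p = 0.027). With SDHA knocked down it was 1.60-fold lower than in SDHBKO cells (log2 fold change -0.68, SE 0.186, 95% interval -1.06 to -0.29, edgeR adjusted p = 0.099). It did not differ from parental cells beyond the test (log2 fold change 0.24, interval -0.20 to 0.68, edgeR adjusted p = 0.682). Both CDK4 calls use the same SDHBKO libraries. The first was lost without parental replicate 1 (adjusted p = 0.458) or 2 (0.185) or SDHBKO replicate 1 (0.118). The second stood just inside the threshold, and was lost in 10 of 15 other fits, among them those without parental replicate 1 (0.188) or 2 (0.206), SDHBKO replicate 1 (0.338) or 3 (0.280), or SDHBKO SDHAlow replicate 1 (0.135) or 3 (0.366).

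The promoter of CDK4 is shown because CDK4 was called in 2 comparisons and because its sequence holds E-boxes, the CACGTG motif bound by MYC and related factors. RefSeq promoter windows, from 250 bases before to 50 bases after a transcript start, matched 7 of the 10 genes, and CCND1, CCNE2 and CDK2 had no entry. The window listed for RB1 (chr13:48476200-48476499) lies inside the gene, which starts at 48303744, and was left out, so that the promoters of 6 genes were examined. The windows kept for CCND3, CDK4, CDKN1A and CDKN1B also lie inside the outermost limits of their genes, at the transcript starts listed. The CDK4 window lies at chr12:57752261-57752560 (GRCh38.p14, minus strand) and is printed 5′ to 3′ with the E-boxes in capitals.
CDK4: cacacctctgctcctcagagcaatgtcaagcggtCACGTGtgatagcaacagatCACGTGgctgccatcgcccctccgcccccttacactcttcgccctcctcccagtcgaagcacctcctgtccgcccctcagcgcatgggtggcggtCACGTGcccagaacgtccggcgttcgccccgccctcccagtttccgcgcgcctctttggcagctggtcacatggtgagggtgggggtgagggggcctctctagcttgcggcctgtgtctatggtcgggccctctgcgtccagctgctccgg
The E-boxes begin at positions -216, -196 and -101 relative to the start. CACGTG, which reads the same on both strands, was found in 7.26% of 35116 promoters, and in none of the other promoters examined. MYC, the best known E-box factor, had 2 and 0 counts in the parental libraries, 3, 4 and 4 in SDHBKO cells, and 10, 16 and 8 in SDHBKO SDHAlow cells. With a mean normalized count of 5.27, MYC passed the filter only through the SDHBKO SDHAlow libraries, so that a difference was built into its selection, and none passed the test (edgeR adjusted p = 0.395, 0.385 and 0.147). A relation between MYC and CDK4 was not tested.

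**Figure D2:**
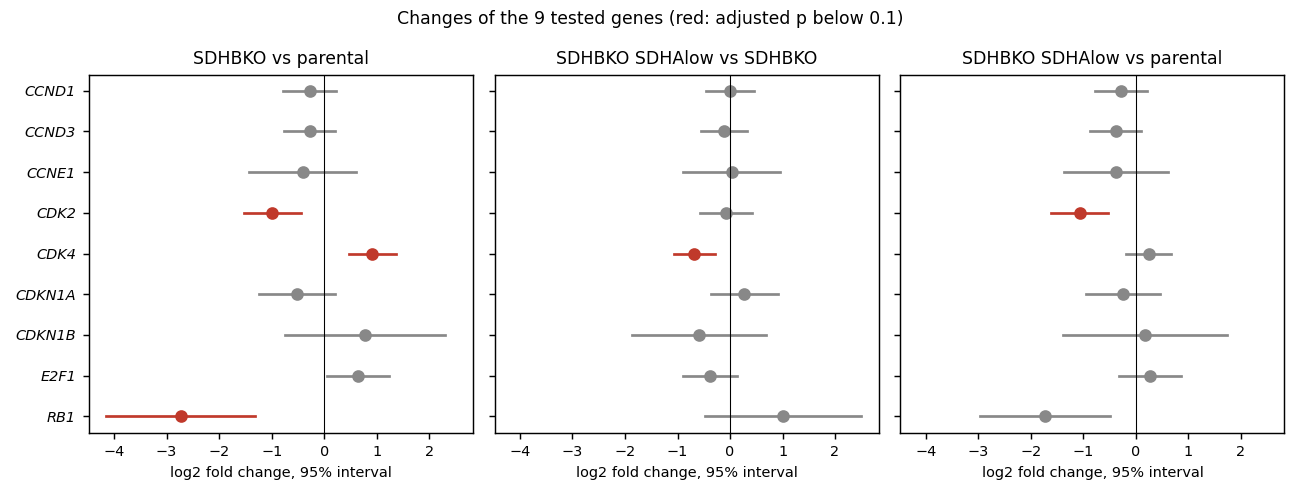
Log2 fold change (x axis) of the 9 tested genes in the 3 comparisons, with 95% intervals from the edgeR fit; red points have an adjusted p below 0.1. CDK2 and RB1 lie to the left and CDK4 to the right of 0 in SDHBKO against parental cells, and the intervals of both D cyclins cross 0 in every panel.

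Because the kinases moved apart, the ratio of CDK4 to CDK2 counts was taken within each library. This ratio was chosen after the values were seen and has no test. It was 0.948 and 1.01 in parental cells, 3.54, 2.82 and 5.14 in SDHBKO cells, and 2.32, 4.19 and 1.60 in SDHBKO SDHAlow cells. Both sublines lay above parental cells in every library, and they overlapped each other, with SDHBKO SDHAlow replicate 2 giving the highest ratio of its group. The means were 0.977 ± 0.042 (SD, n = 2), 3.83 ± 1.18 (n = 3) and 2.70 ± 1.33 (n = 3). The ratio does not depend on library size, but it is not a ratio of transcript numbers, since reads from different 3' ends are not counted with equal efficiency. The last 300 bases of the CDK2 transcript have a GC content of 31.7%, those of CDK4 50.7%, and the median of all tested genes is 43.3%. A fit with an offset for GC content kept the call of both kinases in SDHBKO against parental cells, at log2 fold changes of -0.86 for CDK2 (edgeR adjusted p = 0.054) and 0.82 for CDK4 (edgeR adjusted p = 0.029).

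**Figure D3:**
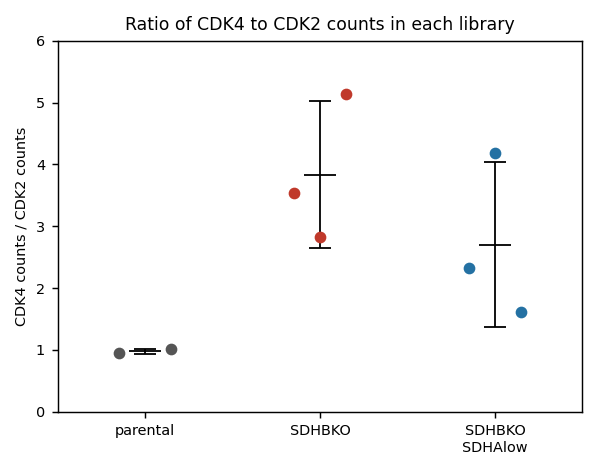
Ratio of CDK4 counts to CDK2 counts (y axis, linear from 0) in each library; points are libraries, bars show the mean and SD of the group. Parental libraries lie at 0.948 and 1.01, SDHBKO libraries between 2.82 and 5.14, and SDHBKO SDHAlow libraries between 1.60 and 4.19.

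CDK2 and CDK4 are neighbours on chromosome 12, and the 55 other tested genes within 2 Mb of either were therefore examined, a choice made after the values were seen. In SDHBKO against parental cells 35 of the 55 were higher, beside 49.9% of all tested genes, with a median log2 fold change of 0.17, and CDK2 was lower. In SDHBKO SDHAlow against SDHBKO cells 47 of the 55 were lower, beside 48.9% of all tested genes, and their median was -0.36. The CDK4 value of -0.68 lies on the same side as this median, and CDK2 at -0.08 nearer to 0. Of these neighbours, 3 were called lower there, where 1.19% of all genes were, namely the sphingolipid regulator ORMDL2 (-0.88), the transcription factor STAT6 (-1.11) and the serine hydroxymethyltransferase SHMT2 (-0.79). ORMDL2 (1.03) and STAT6 (1.10) were also called higher in SDHBKO against parental cells, which is the pattern of CDK4, and MBD6 was called lower (-1.003). These are 2 higher and 1 lower of 55, beside 3.14% and 2.4% of all genes. Against parental cells, the SDHBKO SDHAlow libraries had 38 of the 55 lower, beside 48.6% of all genes, with a median of -0.12. None of them was called there by edgeR or DESeq2, with 4 at an unadjusted p under 0.05 in edgeR. Without SDHBKO SDHAlow replicate 2 the calls were 4, 5 and 1 of the 55, beside 11.4%, 5.03% and 2.32% of all genes. In that fit ORMDL2, STAT6 and SHMT2 were called in both comparisons with SDHBKO cells. With all libraries SHMT2 was not called in SDHBKO against parental cells (edgeR adjusted p = 0.112). The whole of chromosome 12 had a median of -0.16 in SDHBKO SDHAlow against SDHBKO cells, the lowest of 22 chromosomes, whose highest median was 0.20, and 254 of its 408 tested genes were lower. Chromosome 20, which holds E2F1, was close to it, with a median of -0.13 and 154 of 249 genes lower. There 19 genes were called lower, and 16 on chromosome 12, beside 1.19% of all genes. CDKN1B, also on chromosome 12, had 10 tested neighbours, all of them lower in that comparison with a median of -0.56. DNA copy number was not measured, and its part in the values of CDK2, CDK4 and CDKN1B was not tested.

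**Figure D4:**
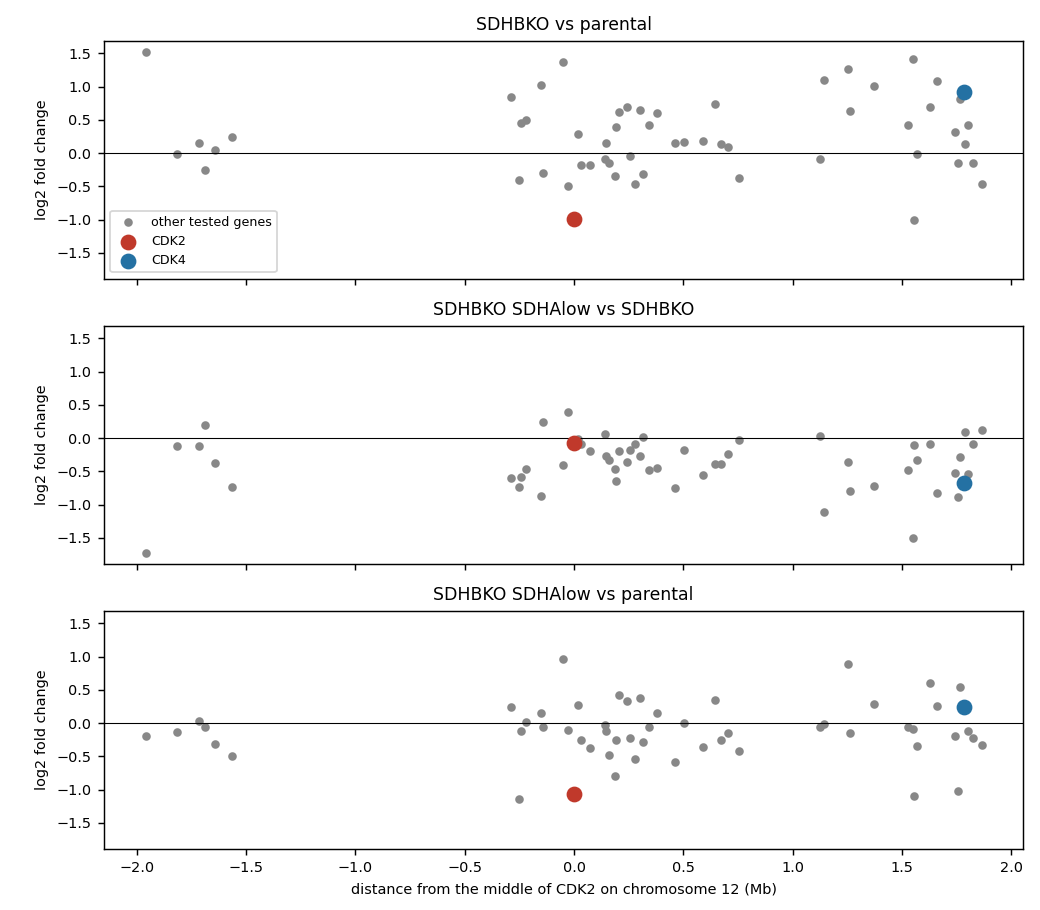
Log2 fold change (y axis) of tested genes within 2 Mb of CDK2 or CDK4 on chromosome 12 against distance from the middle of CDK2 in Mb (x axis), for the 3 comparisons; grey points are the 55 other genes. In the middle panel 47 of the grey points lie below 0 with a median of -0.36, while in the top panel CDK2 lies at -0.99 and CDK4 at 0.92.

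The D-type cyclins, the activating partners of CDK4, were not called in any comparison. CCND1 lies on chromosome 11 (69641156 to 69654474, plus strand). It had 290 and 271 CPM in parental cells, 229.9, 271 and 193 in SDHBKO cells, and 241, 164.9 and 289 in SDHBKO SDHAlow cells, from 168 to 259 counts per library. The groups overlapped, with means of 281 ± 13.8, 231 ± 39.1 and 232 ± 62.4 CPM (SD, n = 2, 3 and 3). The log2 fold change in SDHBKO against parental cells was -0.28 (interval -0.78 to 0.22, edgeR adjusted p = 0.596). Between the sublines it was -0.004, with an interval of -0.46 to 0.45. A change of 2-fold in either direction lies outside these intervals, whereas some smaller changes lie inside them.

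CCND3 lies on chromosome 6 (41934934 to 42050357, minus strand). It had 287 and 315 CPM in parental cells, 218, 227 and 299.99 in SDHBKO cells, and 171, 275 and 242 in SDHBKO SDHAlow cells, from 142 to 368 counts per library. SDHBKO overlapped the parental cells through replicate 3, whereas the 3 SDHBKO SDHAlow libraries lay below both parental ones. Neither difference from parental cells passed the test (log2 fold change -0.28 and -0.39, edgeR adjusted p = 0.587 and 0.526). The intervals were -0.76 to 0.21 in SDHBKO and -0.87 to 0.10 in SDHBKO SDHAlow cells, so that a moderate fall is not excluded. The ratio of CCND1 to CCND3 counts averaged 0.936 ± 0.107 in parental, 0.966 ± 0.287 in SDHBKO and 1.07 ± 0.418 in SDHBKO SDHAlow cells, and overlapped between groups. The third D-type cyclin, CCND2, was at 0 counts in all 8 libraries, which allows up to 2.10 to 3.88 CPM per library. CDK6, the other kinase that D-type cyclins activate, had 3 to 12 counts.

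The E-type cyclins, the partners of CDK2, were near the lower limit of this depth. CCNE1 (chromosome 19, 29811991 to 29824312, plus strand) had 14 and 15 counts in the parental libraries, 6, 11 and 18 in SDHBKO cells, and 11, 17 and 14 in SDHBKO SDHAlow cells. In CPM, SDHBKO libraries (8.21, 12.2 and 19.4) overlapped the parental ones (16.2 and 19.9), and SDHBKO SDHAlow libraries (13.3, 12.7 and 15.6) lay just below them. The log2 fold changes from parental cells were -0.41 and -0.38 (edgeR adjusted p = 0.715 and 0.797), with intervals from -1.42 to 0.60 and from -1.38 to 0.61. CCNE2 (chromosome 8, 94879770 to 94896678, minus strand) had 3 and 0 counts in the parental libraries, 2, 2 and 3 in SDHBKO cells, and 2, 1 and 2 in SDHBKO SDHAlow cells. Every library was at or below 3 counts, so no difference of CCNE2 was detectable at this depth. Summed over groups, CCNE2 came to 1.86 CPM of all counts on genes in parental (exact 95% Poisson interval 0.384 to 5.44), 2.67 in SDHBKO (1.07 to 5.50) and 1.60 in SDHBKO SDHAlow cells (0.521 to 3.74). These intervals cover counting error only.

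The inhibitors did not pass the test in any comparison. CDKN1A (chromosome 6, 36676460 to 36687337, plus strand), a target of p53 and of p53-independent signals, had 49 and 47 counts in the parental libraries, 38, 18 and 49 in SDHBKO cells, and 39, 72 and 44 in SDHBKO SDHAlow cells. In CPM the parental libraries (56.7 and 62.4) lay above all 6 others, of which 5 were between 47.1 and 53.7. SDHBKO replicate 2 was lowest, at 20.01 CPM. CDKN1A was thus one of 4 tested genes among the 10 whose SDHBKO and parental libraries did not overlap, with CDK2, CDK4 and RB1, but 37.9% of all tested genes did not overlap either. The log2 fold change in SDHBKO against parental cells was -0.52 (SE 0.346, interval -1.24 to 0.20, edgeR adjusted p = 0.460). Without SDHBKO replicate 2 it was -0.18. In the other comparisons the shares of all genes without overlap were 17.4% between the sublines, where CDK4 and RB1 did not overlap, and 30.7% in SDHBKO SDHAlow against parental cells, where CCND3, CCNE1, CDK2, CDKN1A and RB1 did not.

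CDKN1B (chromosome 12, 12685498 to 12722369, plus strand) had 5 and 3 counts in the parental libraries, 3, 14 and 5 in SDHBKO cells, and 5, 7 and 5 in SDHBKO SDHAlow cells. The value of 14 was in SDHBKO replicate 2, the library in which CDKN1A was lowest, and all the others lay between 3 and 7. The intervals of its log2 fold changes were wide, from -0.75 to 2.29 in SDHBKO against parental cells and from -1.87 to 0.68 between the sublines. The ratio of CDKN1A to CDKN1B counts was 1.29 in SDHBKO replicate 2 and 7.80 to 15.7 in the other 7 libraries. Of the INK4 inhibitors, which act on CDK4 and CDK6 alone, CDKN2A and CDKN2B were at 0 counts in all 8 libraries. CDKN2D had 63 and 56 counts in the parental libraries, 36, 47 and 32 in SDHBKO and 68, 53 and 72 in SDHBKO SDHAlow cells. It did not pass the test (log2 fold change -0.70 in SDHBKO against parental cells, edgeR adjusted p = 0.262, and 0.55 between the sublines, edgeR adjusted p = 0.467). Without SDHBKO SDHAlow replicate 2, the lowest of its group in CPM, CDKN2D was called higher between the sublines (log2 fold change 0.82, edgeR adjusted p = 0.097). CDKN2C had 11 and 7 counts in the parental libraries, 18, 16 and 12 in SDHBKO and 5, 16 and 18 in SDHBKO SDHAlow cells. It did not pass the test either (log2 fold change 0.71 in SDHBKO against parental cells, edgeR adjusted p = 0.537). Between the sublines its log2 fold change was -0.52 (edgeR adjusted p = 0.698).

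RB1, the substrate of these kinases, was low in all libraries and lowest in SDHBKO cells. It lies on chromosome 13 (48303744 to 48599436, plus strand) and had 19 and 8 counts in the parental libraries, 2, 2 and 2 in SDHBKO cells, and 3, 7 and 5 in SDHBKO SDHAlow cells. The 3 groups did not overlap in CPM, at 21.98 and 10.6 in parental, 2.16 to 2.74 in SDHBKO and 3.62 to 5.57 in SDHBKO SDHAlow cells. From 27 counts in all parental libraries and 6 in all SDHBKO libraries, the ratio of parental to SDHBKO cells was 7.32, with an exact 95% counting interval of 2.96 to 21.7. The fitted log2 fold change was -2.74 (SE 0.681, interval -4.15 to -1.32, edgeR adjusted p = 0.035). The difference of SDHBKO SDHAlow from parental cells was -1.73 (interval -2.97 to -0.49), which did not pass the test (edgeR adjusted p = 0.218). That between the sublines was 1.01 (interval -0.49 to 2.496, edgeR adjusted p = 0.608). With a mean normalized count of 5.92, just above the limit of 5, RB1 was no longer tested without parental replicate 1. The call was lost without SDHBKO replicate 1 (adjusted p = 0.128) or 3 (0.136). The end of its transcript has a GC content of 27.7%, and with the GC offset the log2 fold change was -2.59 (edgeR adjusted p = 0.036). The other pocket proteins, RBL1 (1 to 8 counts) and RBL2 (0 to 5 counts), were not tested. The 73 tested genes of chromosome 13 had a median log2 fold change of -0.25 in SDHBKO against parental cells, the lowest of 22 chromosomes, and 47 of them were lower. The 8 tested genes within 2 Mb of RB1 had a median of -0.17, with none called.

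E2F1, which RB1 restrains, lies on chromosome 20 (33675477 to 33686385, minus strand). It had 124 and 133 counts in the parental libraries, 246, 132 and 249 in SDHBKO cells, and 135, 311 and 162 in SDHBKO SDHAlow cells. In CPM, SDHBKO replicates 1 and 3 (337 and 269) stood above the parental libraries (143 and 177), and replicate 2 (147) lay between them. SDHBKO SDHAlow libraries (163, 232 and 181) overlapped both other groups. The log2 fold change in SDHBKO against parental cells was 0.65 (SE 0.287, interval 0.05 to 1.24, edgeR adjusted p = 0.240), and between the sublines -0.38 (interval -0.89 to 0.14, edgeR adjusted p = 0.574). E2F1 was called only in the 2 fits that left out SDHBKO replicate 2 (log2 fold change 0.92) or SDHBKO SDHAlow replicate 2 (0.66), of the 16 alternatives run for this comparison. Libraries also differed in how log2 CPM, relative to the mean of each gene, followed GC content. Spearman's correlation was 0.170, -0.208 and 0.231 in SDHBKO replicates 1, 2 and 3, and -0.211 and 0.045 in the parental libraries. In SDHBKO SDHAlow replicates it was -0.146, 0.181 and -0.131. E2F1 was not called with the GC offset, and the part of this trend in its values was not otherwise tested.

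The E2F1 promoter is shown because E2F proteins act on their own gene, and because it was the only one of the 6 promoters examined with one of the E2F motifs searched (TTTCGCGC, TTTGGCGC and TTTCCCGC, on both strands). It lies at chr20:33686336-33686635 (GRCh38.p14, minus strand) and is printed 5′ to 3′ with the motif in capitals.
E2F1: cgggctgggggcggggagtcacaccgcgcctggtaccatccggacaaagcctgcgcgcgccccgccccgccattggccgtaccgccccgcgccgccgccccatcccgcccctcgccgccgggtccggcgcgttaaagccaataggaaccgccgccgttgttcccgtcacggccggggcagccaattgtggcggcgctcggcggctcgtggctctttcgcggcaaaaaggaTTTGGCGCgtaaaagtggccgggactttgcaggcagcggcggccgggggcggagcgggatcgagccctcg
The motif begins at position -20 relative to the start. Of all 35116 promoters, 2.74% held one of these motifs. Other forms of the E2F motif were not searched, so that further sites may lie unmarked in this sequence and in the other promoters. A match describes letters and does not show that a factor binds there.

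Genes that E2F proteins switch on at S-phase entry showed no common direction. Of 30 listed, 28 were tested, 15 of them were higher and 13 lower in SDHBKO against parental cells, and their median log2 fold change was 0.014, beside -0.0007 for all genes. One of the 28 was called, beside 5.54% of all genes, the DNA ligase LIG1, which had 42 and 30 counts in the parental libraries, 148, 77 and 105 in SDHBKO and 77, 110 and 47 in SDHBKO SDHAlow cells. LIG1 was higher in every SDHBKO library than in both parental ones (log2 fold change 1.58, SE 0.35, edgeR adjusted p = 0.020), but the call was lost without parental replicate 1 (0.294) or 2 (0.204) or SDHBKO replicate 1 (0.134). The most abundant members that were not called, the replicative helicase subunits MCM7 and MCM5, had log2 fold changes of -0.40 and -0.28. None of the 28 was called by edgeR in the other comparisons, with medians of 0.035 and -0.073. At an unadjusted p under 0.05 there were 7 and 3, and DESeq2 called 1 (FEN1, between the sublines, log2 fold change 0.85, adjusted p = 0.050) and 0. Without SDHBKO SDHAlow replicate 2, edgeR called 2 between the sublines, the flap endonuclease FEN1 higher (1.07, adjusted p = 0.002) and LIG1 lower (-0.89, adjusted p = 0.095). In SDHBKO against parental cells it then called LIG1 and the helicase subunit MCM3, which was lower (-0.53, adjusted p = 0.092). Of all genes, that fit called 5.03% between the sublines and 11.4% in SDHBKO against parental cells.

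Other genes of the G1/S machinery gave no call by edgeR among the 18 tested of 31 listed, with 4 at an unadjusted p under 0.05 in each comparison. DESeq2 called 1 in SDHBKO against parental cells, the MYC partner MAX (log2 fold change -0.70, adjusted p = 0.096), and 0 in the others. Without SDHBKO SDHAlow replicate 2, edgeR called 3 of 17 there, MAX (-0.69) and the phosphatase CDKN3 (-1.34) lower and CDC37 (0.53) higher, and 1, CDKN2D, between the sublines. The shares of all genes called in that fit were 11.4% and 5.03%. In the other fits of SDHBKO against parental cells the count was 2 with only these groups and 1 or 0 otherwise. Their median log2 fold change was -0.21 in SDHBKO against parental cells, 0.20 between the sublines and -0.007 in SDHBKO SDHAlow against parental cells. The chaperones HSP90AB1 and CDC37, which fold CDK4, were the most abundant, at 0.34 and 0.51 in SDHBKO against parental cells (edgeR adjusted p = 0.378 and 0.292). The parts of ubiquitin ligases that act on G1/S proteins numbered 22, of which 18 were tested. In SDHBKO against parental cells CKS1B, a cofactor in the degradation of CDKN1B, was called higher, and FBXO31, a receptor for cyclin D1, lower. These were 1 higher and 1 lower of 18, beside 3.14% and 2.4% of all genes. CKS1B had 318 and 361 CPM in parental cells and 564, 525 and 552.5 in SDHBKO cells (log2 fold change 0.69, SE 0.22, edgeR adjusted p = 0.098), and was called in 6 of 15 other fits. It was lost without any of parental replicates 1 (0.600) and 2 (0.332), SDHBKO replicates 1 (0.228), 2 (0.113) and 3 (0.201), or SDHBKO SDHAlow replicate 1 (0.116). FBXO31 had 91.4 and 110.2 CPM in parental cells and 42.4, 45.6 and 59.4 in SDHBKO cells (log2 fold change -1.03, SE 0.29, edgeR adjusted p = 0.059), and was lost without parental replicate 1 (0.386) or 2 (0.341) or SDHBKO replicate 1 (0.200) or 2 (0.109). None of the 18 was called by edgeR or DESeq2 in the other comparisons, with 0 at an unadjusted p under 0.05 between the sublines and 4 in SDHBKO SDHAlow against parental cells. DDB1 and RBX1, the most abundant that were not called, had log2 fold changes of -0.24 and 0.16 in SDHBKO against parental cells.

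The p53 targets beside CDKN1A were tested for 10 of 25 genes, of which edgeR called 1 in SDHBKO against parental cells, beside 5.54% of all genes. BAX, which permeabilizes mitochondria in apoptosis, was called higher in SDHBKO against parental cells, from 8 and 4 counts to 38, 16 and 22 (log2 fold change 2.03, SE 0.65, edgeR adjusted p = 0.096). The call was lost without parental replicate 1 (0.471) or 2 (0.408), SDHBKO replicate 1 (0.343) or 3 (0.146), or SDHBKO SDHAlow replicate 1 (0.109). The list's median was 0.33, with 7 genes higher and 3 lower, and none was called by edgeR or DESeq2 in the other comparisons, with 0 and 2 at an unadjusted p under 0.05 and medians of -0.11 and 0.17. DESeq2 gave BAX no adjusted p and called the nuclease AEN instead (log2 fold change 0.64, adjusted p = 0.099), and edgeR called both genes without SDHBKO SDHAlow replicate 2. AEN and FDXR, the most abundant that edgeR did not call with all libraries, had log2 fold changes of 0.63 and -0.16. Of the proliferation and G2/M markers, 16 of 18 were tested, and CENPF, a kinetochore protein of dividing cells, was the one called by edgeR, beside 5.54% of all genes in SDHBKO and 0.914% in SDHBKO SDHAlow against parental cells. DESeq2 called none in any comparison, with 3, 4 and 2 at an unadjusted p under 0.05, and gave CENPF no adjusted p. CENPF had 66 and 16 counts in the parental libraries, 3, 8 and 1 in SDHBKO cells, and 7, 9 and 14 in SDHBKO SDHAlow cells. Its log2 fold change was -3.35 in SDHBKO (SE 0.62, edgeR adjusted p = 0.008) and -2.28 in SDHBKO SDHAlow cells (SE 0.55, edgeR adjusted p = 0.084), both against parental cells. Without parental replicate 1 these were -2.15 (0.464) and -1.07 (0.924), and the second was also lost without SDHBKO replicate 1 (0.116) or SDHBKO SDHAlow replicate 1 (0.259). AURKB and UBE2C, the most abundant markers that were not called with all libraries, stood at 0.33 and -0.02 in SDHBKO against parental cells, and the median of the list was -0.16. Between the sublines no marker was called by edgeR or DESeq2, with 4 at an unadjusted p under 0.05. Without SDHBKO SDHAlow replicate 2, edgeR called CCNB2 higher (0.73, adjusted p = 0.069) and AURKB lower (-0.60, adjusted p = 0.060) there, and CENPF, CDK1 (-1.59) and MKI67 (-0.91) lower in SDHBKO against parental cells. The shares of all genes in these comparisons of that fit were 5.03% and 11.4%.

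The genes whose log2 CPM followed each of the 10 most closely over the 8 libraries were found by Pearson's r. The points share their libraries and depth, so these values are a description. For CDK2 they were SLC25A10 (0.950), SYDE1 (0.947) and CAPN15 (0.944). For CDK4 they were PPP1R37 (0.989), PRMT1 (0.988) and TAGLN2 (0.986). The profile of RB1 was most like DEAF1 (0.972), IPO5 (0.959) and SCAMP5 (0.951), and that of E2F1 like GSTZ1 (0.976), NAXE (0.947) and RPS15P4 (0.932). CCND1 was followed by MAT2A, SEC24C and UBE2G2 (0.971 to 0.978), and CCND3 by NAT14, DLGAP4 and C4orf48 (0.954 to 0.997). CCNE1 was followed by TMEM214, DEF6 and LSS (0.902 to 0.918). CDKN1A was followed by PRRT3-AS1, SLC35C2 and EXOSC4 (0.957 to 0.970), and CDKN1B by PPP3CB, SLC35E1 and POGZ (0.894 to 0.914). Each was the highest r of 4538 or 4539 genes compared.

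Reads shared with other genes could affect some of these counts. The exons of CDK4 share 1369 bases with TSPAN31 on the opposite strand, which had 0 to 8 counts. Those of CDK2 share 89 bases with PMEL (0 to 6 counts), those of CCND1 share 497 with LTO1 (8 to 25), and those of CCNE2 share 1629 with INTS8 (0 to 10). Whether reads were counted by strand is not given in the sources used here. The pseudogene copies CDK4P1, CCND3P1 and CCND3P2 were at 0 counts in all libraries.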

How the data were processed

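Messenger RNA of 8 MDA231 samples was sequenced from the 3' end (QuantSeq). The authors filtered reads with Trimmomatic, removed ribosomal and mitochondrial reads, aligned to GRCh38 with STAR 2.5.2b and deposited raw counts per gene. They also deposited a normalized signal, each count over the size factor of its sample, which was used only as a check. Its columns for SDHBKO replicates 1 and 3 hold each other's values when set against the raw data, whose numbering was kept. Rows of unmapped, multimapped and unassigned reads were left out, so that 71.4% to 81.2% of the reads in the files were counted on genes. Whether counting used strand is not given in the sources used here. Symbols and positions came from GENCODE on GRCh38 (56948 of 58051 identifiers matched) and promoters from RefSeq (GRCh38.p14).

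Genes with a mean DESeq2-normalized count above 5 (7550) were tested with edgeR 4.0.16 in R 4.3.3 by the quasi-likelihood F test after TMM normalization. All 8 samples entered 1 fit (5 residual degrees of freedom, biological coefficient of variation 21.5%), with Benjamini-Hochberg adjustment over all genes and a threshold of 0.1. CPM values are TMM-normalized. Intervals are 95%, and those of counts are exact and cover counting error only. The script was tested on simulated data. The labels call the samples biological replicates but name no separate cultures, so that p-values measure only the spread between these samples.

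The 10 genes and the gene lists were chosen with earlier results of these data known. The genes named were the 10, the called genes and the 2 most abundant uncalled genes of each list, and the 3 genes most like each of the 10 (Pearson's r of log2 CPM, prior count 2, mean count of at least 20). List genes called only in other fits were named after their values were seen. Neighbours within 2 Mb, chromosome medians and the ratio of the kinases were added after values were seen, and so was the GC offset (lowess trend per sample, span 0.3, last 300 bases). The other alternatives were DESeq2 1.42.0, its size factors, 2 other filters, a threshold of 0.05, fits of the compared groups alone, a block for the replicate number, and each sample left out.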

Additional observations from a re-analysis of the deposited data

How the results depend on the processing

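Of 411 log2 fold changes of the 9 tested genes under the alternatives, 365 kept their direction and their side of the threshold. These include uncalled differences that stayed uncalled. Of the rest, 30 lost a call, 2 gained one and 14 changed sign. In SDHBKO against parental cells the call was lost in 5 of 16 alternatives (the threshold of 0.05 included) for CDK2, 3 of 16 for CDK4 and 3 of 13 for RB1. Between the sublines CDK4 lost it in 11 of 16, and in SDHBKO SDHAlow against parental cells CDK2 lost it in 8 of 16. Deviations from group means showed little correlation in 7 same-numbered pairs of samples (mean r -0.070, from -0.270 to 0.093). Such deviations sum to 0 within a group of 2 or 3 samples, so these values cannot decide whether samples were paired. The numbering with SDHBKO replicates 1 and 3 exchanged was not tried. With the replicate number as a block, 1 of the 10 genes (CDK4) was called in SDHBKO against parental cells and 0 in each other comparison, and of all genes 199, 59 (sublines) and 12 (SDHBKO SDHAlow against parental). With the block the adjusted p was 0.107 for CDK2 and 0.104 for RB1 in SDHBKO against parental cells, 0.212 for CDK2 in SDHBKO SDHAlow against parental cells and 0.231 for CDK4 between the sublines. With only the groups compared, calls over all genes were 773, 64 and 7 in the same order, and 0 of the 10 genes were called between the sublines or in SDHBKO SDHAlow against parental cells. At an adjusted p below 0.05 they were 171, 64 and 13, again with 0 of the 10 genes in those comparisons. Between the sublines 0 of the 10 were called with the size factors of DESeq2 (CDK4 at 0.111) or no filter on low counts (CDK4 at 0.109). With no filter 152 genes were called in SDHBKO SDHAlow against parental cells. In DESeq2 CDK2 and CDK4 kept their calls, and RB1 had no adjusted p; under filterByExpr RB1 was not tested. Over the fits without 1 sample, the calls among the 10 genes ranged from 0 to 4, 0 to 1 and 0 to 1, and those over all genes from 0 (without parental replicate 1) to 846, 39 to 375 and 4 to 173, each upper end without SDHBKO SDHAlow replicate 2 for all genes. The 14 changes of sign concerned uncalled differences. Between the sublines CCND1 was 0.0038 with no filter and 0.078 with the GC offset. Leaving out 1 sample gave ranges there from -0.19 to 0.18 for CCND1, -0.29 to 0.057 for CCND3, -0.20 to 0.40 for CCNE1, -0.29 to 0.17 for CDK2 and -0.066 to 0.49 for CDKN1A, and from -0.063 to 0.47 for CDKN1B in SDHBKO SDHAlow against parental cells. The cause of these differences was not tested. Depth limits CCNE1, CCNE2, CDKN1B and RB1, which had at most 19 counts in any library.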
